A study of Oryza sativa with 4 samples.

Results

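The alpha-amylase family of rice was followed in leaf RNA through 7 gene IDs of the 37858 in the deposited table. They were chosen by an ID list that uses no measured value, though earlier results of these data were known. The 7 are RAmy1A (Os02g0765600), RAmy2A (Os06g0713800), the tandem copies RAmy3A (Os09g0457400), RAmy3B (Os09g0457600) and RAmy3C (Os09g0457800), RAmy3D (Os08g0473900) and RAmy3E (Os08g0473600). The table holds IDs without names or coordinates, so the names are those of the list. Whether the list holds every alpha-amylase gene of rice was not checked, and the family below means these 7. In the RefSeq gene table of assembly ASM3414082v1, 6 of the 7 names occur, each on the chromosome that the digits of its ID give. RAmy3D and RAmy3E are direct neighbours there, with 0 genes between them, and so are RAmy3A and RAmy3B.

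The libraries were made from leaves of the cultivar Nipponbare, a japonica rice, and no transgene or mutation is labelled in either group. The heated group is the progeny of heat-treated seed (2 libraries, both with a 30 °C incubation label). Heated leaves below are leaves of this progeny. The heat treatment named was that of the seed, not of the leaves. The control group is titled as control seed (2 libraries, of which control 1 has a 25 °C label and control 2 a 30 °C label). Beyond the incubation temperature, the labels give no plant age, heat dose or number of plants pooled. Whether the libraries of a group are separate plants is not said. The p-values here cover the spread among these 4 libraries, which may be technical. Total expected counts were 17298384 and 16605260 in heated 1 and heated 2, and 15444235 and 17214538 in control 1 and control 2. Because the IDs come without names, the labelled leaf tissue was not checked against marker genes.

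Alpha-amylases cut the internal alpha-1,4 links of starch and release soluble glucose chains. In cereals they are best known from germinating grain, where the aleurone and scutellum secrete them to mobilise the starch of the endosperm, under control of gibberellin and of sugar supply. In ripening rice grain, high temperature is known to raise alpha-amylase expression, which has been tied to chalky kernels. In leaves, much of the nightly starch breakdown is known, from Arabidopsis, to run through beta-amylases.

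In these leaves the 7 listed members were scarce, and all but 1 of their counts came from RAmy2A and RAmy3D. RAmy1A, RAmy3A, RAmy3B and RAmy3C were listed at 0 in all 4 libraries, and RAmy3E had 1 count in 1 library. RAmy3D averaged 2.20 ± 0.333 CPM in heated leaves and 0.934 ± 0.219 CPM in control leaves (SD, n = 2 each), and RAmy2A averaged 1.89 ± 0.739 CPM in heated leaves and 1.04 ± 0.493 CPM in control leaves (SD, n = 2 each). CPM is the count divided by the scaled library size and given per 1000000. Neither difference passed the test across all genes.

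**Figure D1:**
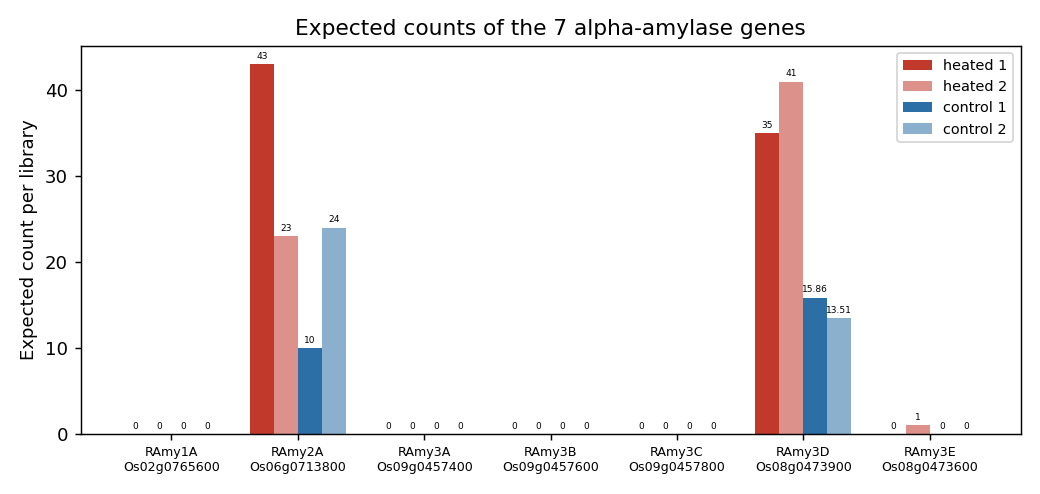
Expected counts (vertical axis) of the 7 alpha-amylase genes, with 1 bar per library and the count printed above it; heated libraries are red and control libraries blue. RAmy2A and RAmy3D have between 10 and 43 counts per library, RAmy3E has 1 count in heated 2, and the other genes are at 0.

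RAmy1A encodes an enzyme known as a major gibberellin-induced alpha-amylase of the germinating grain. It had 0 counts in heated 1, heated 2, control 1 and control 2. At a floor of 3 counts per library, a count of 0 allows a level of up to 0.168 and 0.178 CPM in heated 1 and heated 2, and up to 0.206 and 0.173 CPM in control 1 and control 2. Over a group, 3 counts correspond to 0.0864 CPM in heated leaves and 0.0941 CPM in control leaves. These limits cover counting error only, and a listed 0 means that RSEM, which divides reads matching several genes, assigned none to that ID. A count of 0 in all 4 libraries was common in the table, at 8121 of 37858 IDs (21.5%).

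The 3 tandem copies on chromosome 9, RAmy3A, RAmy3B and RAmy3C, likewise had 0 counts in every library, alone and summed, so the same limits hold for each of them. The IDs between them were not all at 0. Os09g0457700, which lies by number between RAmy3B and RAmy3C, had 63 and 33 counts in heated 1 and heated 2, against 37 and 20 counts in control 1 and control 2. Its levels were 3.53 and 1.96 CPM in heated leaves, against 2.54 and 1.15 CPM in control leaves, and the groups overlapped. Its log2 fold change of 0.58 (SE 0.51) did not pass the edgeR quasi-likelihood test (adjusted p = 0.795). The files give this ID no name, and whether it overlaps an amylase copy was not tested, since no coordinates were used. The other ID in the interval, Os09g0457532, had 0 counts in all 4 libraries.

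RAmy3E had 0 counts in heated 1 and 1 count in heated 2, against 0 counts in both control libraries. The single read of heated 2 is 0.0593 CPM, below the limit that a count of 0 allows, so heated and control leaves could not be told apart for this gene at this depth. Together with RAmy1A and the chromosome 9 copies, it makes 5 of the 7 members that had too few counts to test.

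RAmy3D, known from rice cell cultures and embryos as an alpha-amylase gene switched on by sugar starvation, was the member whose groups did not overlap. It had 35 and 41 counts in heated 1 and heated 2, against expected counts of 15.86 and 13.51 in control 1 and control 2. On the CPM scale its levels were 1.96 and 2.43 in heated leaves, against 1.09 and 0.779 in control leaves. Both heated libraries lay above both controls, as they did for 21.0% of all tested genes. For a further 19.5% of the tested genes both lay below, so groups that do not overlap were common. In bulk leaf RNA, fewer expressing cells and less RNA per cell cannot be told apart.

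The fitted log2 fold change of RAmy3D was 1.20 (SE 0.42, higher in heated leaves in 2 of 2 libraries). Its edgeR quasi-likelihood p was 0.0283 unadjusted and 0.442 after Benjamini-Hochberg adjustment over 22184 genes, so it was not called. Unadjusted, 9.23% of the tested genes had a p under 0.05, and 6.39% had a lower p than RAmy3D. On the summed rounded counts, 76 in heated against 30 in control, the ratio of scaled levels was 2.33 (exact 95% counting interval 1.51 to 3.68). This interval leaves out the spread between libraries, which the edgeR test includes.

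**Figure D2:**
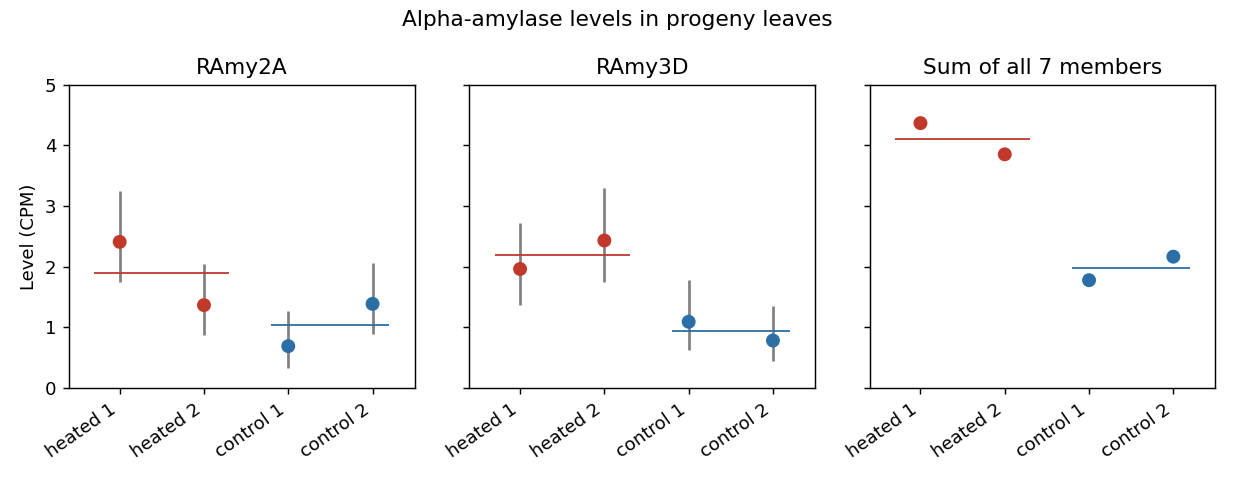
Levels in CPM (vertical axis) of RAmy2A, RAmy3D and the sum of all 7 members in each library, heated in red and control in blue; horizontal lines are group means and grey bars are exact 95% Poisson intervals of the rounded counts. The groups are apart for RAmy3D, and heated 2 and control 2 have nearly the same RAmy2A level, 1.36 and 1.38 CPM.

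Part of the RAmy3D signal may be shared with a neighbouring ID. Os08g0473800, which lies by number between RAmy3E and RAmy3D and has no name in the files, had 0 counts in heated 1 and heated 2, against expected counts of 1.14 and 5.49 in control 1 and control 2. Added to those of RAmy3D, these fractions gave whole numbers, namely sums of 35 and 41 in the heated libraries, and of 17 and 19 in the controls. Whether the same reads were divided between these IDs was not tested, since no alignments were used. This holds for the heated libraries too, where a listed 0 does not show that no read matched both IDs. Of the summed counts, 0% stood under Os08g0473800 in both heated libraries, against 6.71% in control 1 and 28.9% in control 2. The other ID between RAmy3E and RAmy3D, Os08g0473650, was at 0 in all 4 libraries.

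With the counts of both IDs summed, the control libraries drew closer to each other, and the heated libraries stayed above them. The summed level was 2.20 ± 0.333 CPM in heated leaves and 1.13 ± 0.0504 CPM in control leaves (SD, n = 2 each), a ratio of 1.94. The log2 fold change of the sum was 0.95, against 1.20 for RAmy3D alone, with an edgeR quasi-likelihood adjusted p of 0.543. The heated libraries thus had the higher level with and without the neighbour's counts, by a smaller factor with them. Summing RAmy3D with RAmy3E, its chromosome 8 copy, gave a log2 fold change of 1.22 (edgeR adjusted p = 0.431).

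**Figure D3:**
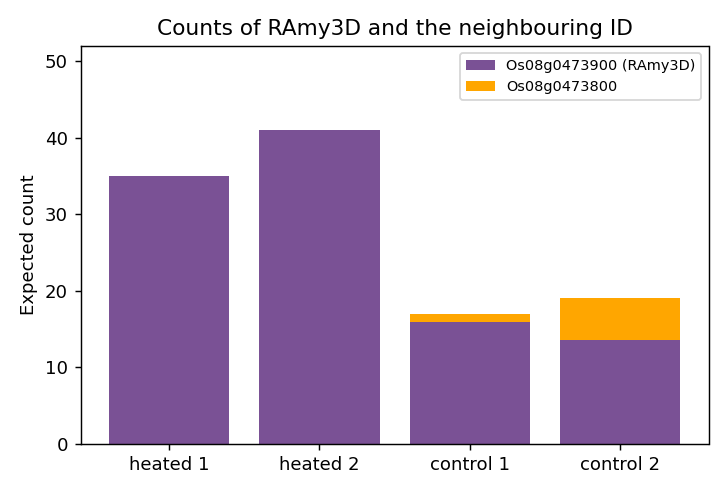
Expected counts (vertical axis) of RAmy3D (purple) and of Os08g0473800 (orange), stacked, in each of the 4 libraries. The stacks reach 35 and 41 in the heated libraries and 17 and 19 in the controls, and only the control stacks hold counts of Os08g0473800.

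RAmy2A, the chromosome 6 member, was expressed in every library but did not separate the groups. It had 43 and 23 counts in heated 1 and heated 2, against 10 and 24 counts in control 1 and control 2. Its levels were 2.41 and 1.36 CPM in heated leaves, against 0.687 and 1.38 CPM in control leaves. Heated 2 lay just below control 2, so the groups overlapped, with heated 1 highest and control 1, the library labelled 25 °C, lowest. All of its counts were whole numbers.

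The fitted log2 fold change of RAmy2A was 0.85 (SE 0.54), with an edgeR quasi-likelihood p of 0.164 unadjusted and 0.711 adjusted. On the summed counts, 66 in heated against 34 in control, the ratio of scaled levels was 1.78 (exact 95% counting interval 1.16 to 2.78, counting error only). The value leaned on single libraries. The log2 fold change was 0.39 without heated 1 and 0.44 without control 1, against 1.44 without control 2 and 1.20 without heated 2. RAmy2A passed the adjusted threshold in none of these 4 fits.

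The spread within each group was wide for RAmy2A and narrower for RAmy3D. On log2(CPM + 0.5), heated 1 exceeded heated 2 by 0.64 for RAmy2A, while for RAmy3D heated 1 minus heated 2 was -0.25. Control 1 minus control 2 was -0.67 for RAmy2A and 0.31 for RAmy3D. Among 3239 tested genes with a mean of 1 to 3 CPM, the range that holds both members, the median size of this difference was 0.30 in the heated pair and 0.39 in the control pair. RAmy2A thus lay above the median of similarly scarce genes in both pairs, and RAmy3D below it in both.

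Across the family, 2 of 7 members passed the filter on low counts, each with enough counts in all 4 libraries, and 0 of these 2 were called in either direction by the edgeR quasi-likelihood test. Over all genes 155 of 22184 (0.699%) were called, of which 0.248% of the tested genes were higher and 0.451% were lower in heated leaves. The balance of higher and lower calls turned under other settings, such as 394 higher and 338 lower with edgeR's exact test. At an unadjusted p under 0.05, 1 of the 2 members passed, RAmy3D, beside 2047 of all 22184 genes (9.23%). DESeq2 called 0 of the 2 as well, beside 547 of 23940 genes (2.28%). Limma-voom called 0 of the 2, beside 131 of 22184 genes (0.591%), and edgeR's exact test called 0 of the 2, beside 732 of 22184 genes (3.30%). The 2 log2 fold changes had a median of 1.03, beside a median of 0.01 over all tested genes. With only 2 values, neither of them called, this is a description, and the difference was not tested. Among the genes averaging 1 to 3 CPM, 12 of 3239 (0.370%) were called, beside the 0.699% over all genes, and the difference between these shares was not tested.

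**Figure D4:**
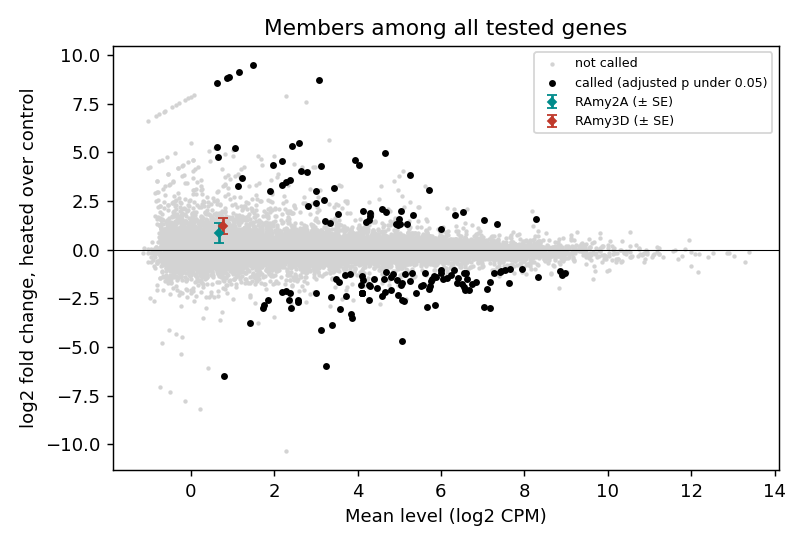
Log2 fold change, heated over control (vertical axis), against mean level in log2 CPM (horizontal axis) for all 22184 tested genes; black points were called and diamonds with SE bars are RAmy2A and RAmy3D. Both members lie at the scarce end of the plot, above 0 and among genes that were not called.

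Both members stood low among the tested genes, which leave out the IDs that failed the filter on low counts. Only 11.9% of the tested genes had a lower mean CPM than RAmy2A, and 12.8% had a lower mean CPM than RAmy3D. For the size of the fold change, 8.25% of the tested genes had a larger log2 change in either direction than RAmy2A and 4.56% had a larger one than RAmy3D. These shares cover genes of all levels. The median difference within a pair was 0.16 (heated) and 0.27 (control) over all tested genes, against 0.30 and 0.39 at 1 to 3 CPM. The shares among genes of similar level were not computed. CPM does not account for gene length and the table gives no lengths, so the levels of RAmy2A and RAmy3D were not ranked against each other.

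The summed expression of the 7 members was 4.37 and 3.85 CPM in heated 1 and heated 2, against 1.78 and 2.16 CPM in control 1 and control 2. The mean was 4.11 ± 0.364 CPM in heated leaves and 1.97 ± 0.274 CPM in control leaves (SD, n = 2 each). Their ratio of 2.09 is given as a description without a test. The sum leaves out the counts of Os08g0473800, which were 0 in both heated libraries and 1.14 and 5.49 in control 1 and control 2. With them the ratio would be smaller. Which gene supplied most of the family's counts changed from library to library. RAmy2A had 55.1% of them in heated 1 and 35.4% in heated 2, against 38.7% in control 1 and 64.0% in control 2. The share of RAmy2A thus differed between the libraries of each group, and the groups overlapped. These shares leave out Os08g0473800 too, and with it the control shares of RAmy2A would be lower.

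Sorting the libraries by their temperature label, with control 1 (25 °C) set against the other 3 libraries (30 °C), ordered the members differently. RAmy2A then had a log2 fold change of 1.32 at 30 °C over 25 °C (edgeR quasi-likelihood adjusted p = 0.287), larger than its 0.85 by title. RAmy3D had 0.65 (adjusted p = 0.637), smaller than its 1.20 by title. With 1 library at 25 °C, its label and the library itself cannot be told apart, and the fit takes the spread of this single library to equal that of the rest. With control 1 left out, every library carried the 30 °C label and 1 control remained. Heated over control, the log2 fold change was then 0.44 for RAmy2A and 1.43 for RAmy3D.

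**Figure D5:**
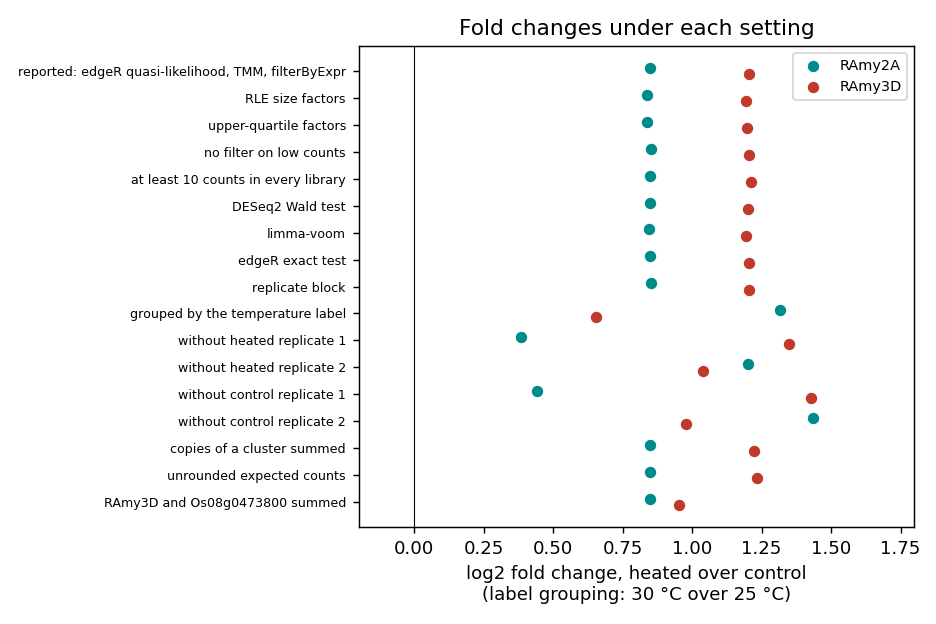
Log2 fold changes (horizontal axis) of RAmy2A and RAmy3D in the reported fit and under each alternative setting (rows), heated over control except for the label grouping, which is 30 °C over 25 °C. Every point lies above 0. RAmy2A ranges from 0.39 to 1.44, and RAmy3D has its lowest values, 0.65 and 0.95, under the label grouping and with Os08g0473800 summed in.

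The expression profile nearest to that of RAmy3D, used because its CPM averaged over all 4 libraries was the highest of the family, was sought among 20586 other tested genes, all averaging 1 CPM or more. The measure was the Euclidean distance between mean-centred log2(CPM + 0.5) profiles over the 4 libraries. This choice says nothing of its level relative to RAmy2A, which had the higher mean CPM in control leaves. The nearest were Os01g0900800 (distance 0.10) and Os09g0478733 (distance 0.11), which the files do not pair with names. Os01g0900800 had 139 and 183 CPM in heated leaves, against 93.2 and 74.9 CPM in control leaves, and was not called (edgeR adjusted p = 0.133). The 0.5 added to CPM narrows the differences of a scarce gene more than those of an abundant one. The fitted log2 fold change was 0.94 for Os01g0900800, against 1.20 for RAmy3D. Os09g0478733 had 3.60 and 4.82 CPM in heated leaves, against 2.41 and 1.74 CPM in control leaves (edgeR adjusted p = 0.416). With 4 libraries such closeness is easily reached, and 267 genes lay within a distance of 0.5.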

How the data were processed

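Leaf RNA was sequenced from 2 heated and 2 control libraries with a strand-marking poly(A) kit, per the labels' protocols. The submitters' processing notes name the build IRGSP-1.0 and the tools RSEM, Bowtie2, Trimmomatic, edgeR 3.26.3 and FastQC 0.11.7. How each was set, which annotation served and whether counting was stranded is not stated there. The deposited values are expected counts per gene from RSEM, per the file headers, without normalization, and need not be whole. Samples were grouped by title.

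Expected counts were rounded and tested over the whole table in R 4.3.3 with edgeR 4.0.16 (quasi-likelihood, TMM scaling, filterByExpr with minimum count 10 and minimum total 15, group as the only term, all 4 libraries). Benjamini-Hochberg adjusted p under 0.05 was a call. CPM came from unrounded counts and TMM-scaled sizes. The SE is the log2 fold change divided by the square root of F. The fit was also run on simulated counts, drawn independently for each library, and the outcome is not reported here. Alternatives included DESeq2 1.42.0 and limma 3.58.1 with voom.

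The members and lists were chosen with earlier results of these data known. By rule, all members, at most 2 IDs between cluster members and the 2 IDs nearest in profile were named, and the other IDs between members, which were at 0, were added. Of 17 IDs planned for other starch breakdown genes, the RefSeq table named 0, so none is described. No sequence of the members was used here.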

Additional observations from a re-analysis of the deposited data

How the results depend on the processing

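RAmy2A and RAmy3D kept their positive log2 fold change and failed the adjusted threshold in all 16 alternatives each. Values ranged from 0.39 to 1.44 for RAmy2A (adjusted p 0.195 to 1.000) and, heated over control, from 0.95 to 1.43 for RAmy3D (adjusted p 0.255 to 1.000). The label grouping, a contrast of 30 °C over 25 °C, gave RAmy3D 0.65. The number of members called was 0 in every alternative that gave one. Over all genes, 155 calls became 419 without a filter on low counts, 547 with DESeq2's Wald test, 732 with edgeR's exact test and 532 with a replicate block, and between 64 and 2506 with 1 library left out. Lower calls outnumbered higher ones in the reported fit, and the opposite held without a filter (215 higher, 204 lower), with DESeq2 (275, 272), with the exact test (394, 338), with the replicate block (295, 237), without heated 2 (86, 43) and without control 2 (1307, 1199). The extremes were 64 without heated 1 and 2506 without control 2, and 504 were called without control 1. Where 1 library remained in a group, its spread was taken from the other group. For these shifts the cause was not tested. The labels do not say that equal replicate numbers mark a shared batch, and the replicate 1 minus replicate 2 differences of heated and control had a correlation of -0.015 across genes. With the replicate block RAmy3D had an adjusted p of 0.520 and RAmy2A 0.836. Summing RAmy3D with Os08g0473800 was chosen after seeing the data. Other scalings moved the median log2 fold change by -0.0092 (RLE) and -0.0086 (upper quartile). At 10 to 43 counts per library, counting error alone limits what can be seen for these genes.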

Other observations

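The tandem amylase copy RAmy3C, at 0 in all 4 libraries, lies by ID number between a pair of IDs that did have counts. Os09g0457833, which follows it and was chosen after its values were seen, had 47 and 31 counts in heated 1 and heated 2, against 32 and 16 counts in control 1 and control 2. Its levels were 2.63 and 1.84 CPM in heated leaves, against 2.20 and 0.923 CPM in control leaves, and the groups overlapped. Its log2 fold change was 0.53 (SE 0.51, edgeR quasi-likelihood adjusted p = 0.814), beside 0.58 for Os09g0457700 on the other side of RAmy3C. Both IDs were highest in heated 1 and lowest in control 2. The files give neither a name, and their relation to the amylase copies was not tested.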
